A study of Homo sapiens with 12 samples.

Results

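Transcripts of splicing factors and hnRNP proteins were followed through the first weeks of human embryonic stem cell differentiation. The members were all genes whose symbol on the array begins with HNRNP, SRSF, SF3A, SF3B, SNRP, PRPF or U2AF and of which a probe passed a detection p-value of 0.01 on 4 or more of the 12 arrays. The array names 72 such genes, and 68 of them met this rule, among 10562 genes tested in all. They comprised 24 HNRNP, 12 SRSF, 11 SNRP, 2 SF3A, 6 SF3B, 3 U2AF and 10 PRPF genes. HNRNPCL1 and SF3A1 were detected on 0 arrays and PRPF40B and SNRPE on 1 array each, so they are not described further. The members nearest to the detection rule on its inner side were PRPF39, detected on 9 arrays, and U2AF1L4, detected on 11. The other 66 members were detected on all 12 arrays. The rule used detection only and no difference between groups.

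All RNA came from the established human embryonic stem cell (ESC) line SNUhES3 and was hybridised to 12 bead arrays of 1 colour, Illumina's HumanWG-6 v3. The first group held 4 arrays of undifferentiated ESCs, grown on STO mouse feeder cells that had been arrested in mitosis, with 4 ng/ml basic FGF in the medium. The second and the third group held 4 arrays each of embryoid bodies (EBs), floating aggregates that were kept without basic FGF for 1 week or 2 weeks. EBs hold many cell types at once, and the study used a single line. The labels leave it unsaid whether separate cultures lie behind the 4 arrays of each group. The p-values therefore measure only how far these arrays spread, which may be technical.

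Introns are removed from transcripts by the spliceosome, which is assembled on each intron from small nuclear ribonucleoprotein particles (snRNPs) and many helper proteins. SR proteins bind exons and recruit the splicing machinery to nearby splice sites, whereas hnRNP proteins coat nascent RNA and often hold exons out of the mature message. Pluripotent cells and their differentiated progeny are known to use different splice forms of many genes, and the balance of such RNA-binding proteins is one of the known means of choosing between them.

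Promoters are shown for a pair of members that were higher in EBs at both times, HNRNPA0 and SRSF3, and for a pair that were lower at both times, SNRPA and SRSF10. Each sequence is the 250 bases before the gene's start on the gene's own strand, from RefSeq on GRCh38.p14. The windows are chr5:137754364-137754613 (minus strand) for HNRNPA0, chr6:36594112-36594361 (plus strand) for SRSF3, chr19:40750953-40751202 (plus strand) for SNRPA and chr1:23980328-23980577 (minus strand) for SRSF10. Capitals mark matches to any of the motifs searched.
HNRNPA0: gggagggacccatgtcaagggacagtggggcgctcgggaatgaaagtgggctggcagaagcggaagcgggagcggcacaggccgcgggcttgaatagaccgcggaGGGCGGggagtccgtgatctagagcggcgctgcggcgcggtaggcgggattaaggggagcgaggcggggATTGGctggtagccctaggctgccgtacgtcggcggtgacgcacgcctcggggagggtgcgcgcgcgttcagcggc
SRSF3: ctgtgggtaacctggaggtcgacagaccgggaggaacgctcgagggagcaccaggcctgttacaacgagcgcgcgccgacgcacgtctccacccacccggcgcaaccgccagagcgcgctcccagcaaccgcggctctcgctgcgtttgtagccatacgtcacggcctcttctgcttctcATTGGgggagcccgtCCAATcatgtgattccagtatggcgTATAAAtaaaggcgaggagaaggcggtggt
SNRPA: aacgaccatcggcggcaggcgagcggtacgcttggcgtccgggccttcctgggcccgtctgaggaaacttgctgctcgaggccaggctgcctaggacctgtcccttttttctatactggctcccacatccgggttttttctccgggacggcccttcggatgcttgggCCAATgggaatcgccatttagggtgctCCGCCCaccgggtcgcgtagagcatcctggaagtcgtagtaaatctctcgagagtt
SRSF10: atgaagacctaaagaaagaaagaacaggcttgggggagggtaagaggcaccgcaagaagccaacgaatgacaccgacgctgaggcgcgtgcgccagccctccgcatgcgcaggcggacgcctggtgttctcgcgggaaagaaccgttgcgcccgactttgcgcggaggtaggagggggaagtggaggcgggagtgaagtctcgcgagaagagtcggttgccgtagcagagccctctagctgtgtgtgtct

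In HNRNPA0 the capitals mark the letters of an SP and KLF box at -145 and of an inverted CCAAT box at -76, counted in bases from the start. SRSF3 held an inverted CCAAT box at -70, a further CCAAT box at -55 and a TATA box at -30. SNRPA held a CCAAT box at -83 and an inverted SP and KLF box at -56, and SRSF10 held none of the motifs searched. Promoters of 59 of the 68 members were matched, which gave 82 windows because some genes have more than 1 start. The motifs were searched on both strands, and none contains the letters of another. The ETS motif CCGGAAG was in 25.6% of the members' windows and in 8.52% of all 35116 windows. The CCAAT box was in 39% against 32%, the SP and KLF box GGGCGG in 51.2% against 42.6%, and the MYC E-box CACGTG in 11% against 6.34%. TATAAA was in 8.54% against 10.7%, the YY1 motif AAGATGGC in 1.22% against 1.36%, and the NRF1 palindrome in 0% against 1.03%. By the 2-week comparison, the ETS motif was in 1 of 19 windows of members that were higher, in 3 of 14 of members that were lower and in 17 of 49 of members that did not pass. The 35116 windows were not limited to genes detected on these arrays, as the members were. Whether these shares set the members apart from other detected genes was therefore not tested. A match is a match of letters only.

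Mean probe intensity ranged from 718.3, on the second 2-week array, to 1092, and 14045 to 15905 probes were detected per array. Arrays 1 and 2 of the ESCs and of the 1-week EBs resembled each other across genes (correlations of 0.997 and 0.998), as did arrays 3 and 4 (0.998 in each), against 0.987 and 0.992 between the pairs. In 2-week EBs arrays 3 and 4 correlated at 0.998 and the other combinations at 0.990 to 0.995. The labels do not say what the pairs share. The mean log2 level of 5 pluripotency genes was 13.44 to 13.63 in ESCs, 13.29 to 13.52 at 1 week and 13.06 to 13.16 at 2 weeks, so these genes were still at high levels in EBs, and 0 of the 5 passed as lower at 1 week and 3 at 2 weeks. Over the same groups the means of 5 mesenchyme genes were 7.185 to 7.73, 12.9 to 13.41 and 14 to 14.2, those of 4 heart genes 7.246 to 7.338, 12.18 to 12.4 and 12.2 to 12.5, and those of 5 endoderm and liver genes 5.805 to 6.103, 11.65 to 11.71 and 11.85 to 11.95. Means of 4 neural genes were 7.449 to 7.726, 8.226 to 8.836 and 9.463 to 9.731. Of these genes 3 passed as higher and 1 as lower at 1 week, and 3 as higher and 0 as lower at 2 weeks. The lower one was MAP2, at 7.65 to 7.95 in ESCs, 7.16 to 7.68 at 1 week and 7.40 to 7.68 at 2 weeks. The 6 proliferation genes stood at 11.24 to 11.38, 11.32 to 11.41 and 11.23 to 11.39, and 0 of them passed the test against ESCs at either time. The part of this change in cell types in the differences below was not tested, and in such bulk RNA fewer cells of a type and less RNA per cell cannot be told apart.

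The changes of the members were smaller in size, at the median, than those of all genes. Called below means a Benjamini-Hochberg adjusted p under 0.05 over all genes in limma's two-sided moderated test, and higher, lower, rose and fell are used of called genes only. At 1 week 17 of the 68 members (25%) were higher than in ESCs and 11 (16.2%) were lower, against 27.1% and 24.8% of all genes. At 2 weeks 16 (23.5%) were higher and 11 (16.2%) lower, against 30.7% and 31.8% of all genes. The median log2 difference of the members was 0.04 at 1 week and 0.03 at 2 weeks, beside 0.01 and -0.02 for all genes. In absolute size the median was 0.207 at 1 week and 0.197 at 2 weeks, against 0.267 and 0.341 for all genes, and the 90th percentile was 0.419 and 0.510 against 0.950 and 1.23. The SRSF family went the other way at the median, with 0.3404 and 0.3875. On all 12 arrays 66 of the 68 members were detected, against 8854 of 10562 genes, and the sizes were not matched for signal level.

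No member passed the 2-fold mark (a log2 difference of at least 1) at 1 week, where 9.16% of all genes did. SRSF2 alone did so at 2 weeks, which is 1.47% of the members against 14.3% of all genes. Both comparisons use the same ESC arrays. Of the members 11 were higher and 6 lower at both times, 6 were higher and 5 lower at 1 week only, 5 were higher and 5 lower at 2 weeks only, and 30 passed at neither time. None was called in opposite directions. These combinations were not counted over all genes, so they say nothing of the members in particular. With arrays scaled to equal medians in place of equal distributions, the median of all genes moved to 0.13 at 1 week, 0.00 at 2 weeks and -0.12 between the weeks, and members called were 12 higher and 6 lower at 1 week and 10 higher and 12 lower at 2 weeks. From arrays 1 and 2 of every group alone 4 were higher and 9 lower at 1 week, and from arrays 3 and 4 alone 22 were higher and 15 lower. With the array pairs (1 and 2, 3 and 4) of each group as a random block, whose estimated correlation was 0.544, 15 of the 28 calls at 1 week and 8 of the 27 at 2 weeks were lost, each given beside its gene below as its adjusted p with paired arrays.

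**Figure D1:**
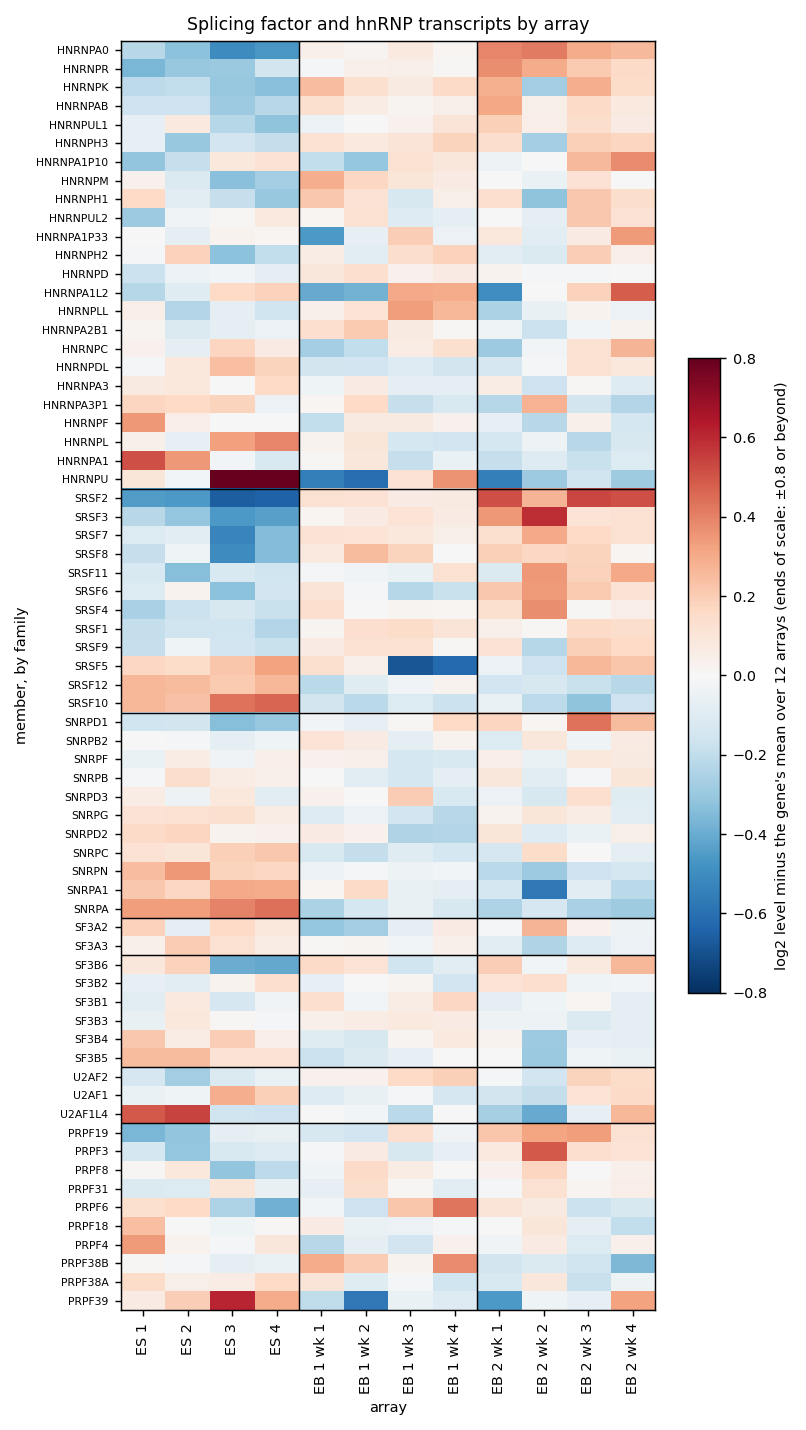
Each row is 1 of the 68 members, ordered by family and then by the 2-week difference, and each column is 1 array. The colour is the log2 level minus the gene's own mean over the 12 arrays, with colours at the ends of the scale for values of 0.8 or more in either direction. SRSF2, SRSF3 and HNRNPA0 pass from blue in ESCs to red in EBs, SNRPA and SRSF10 do the reverse, and HNRNPU and SRSF5 show blocks that follow the array pairs.

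**Figure D2:**
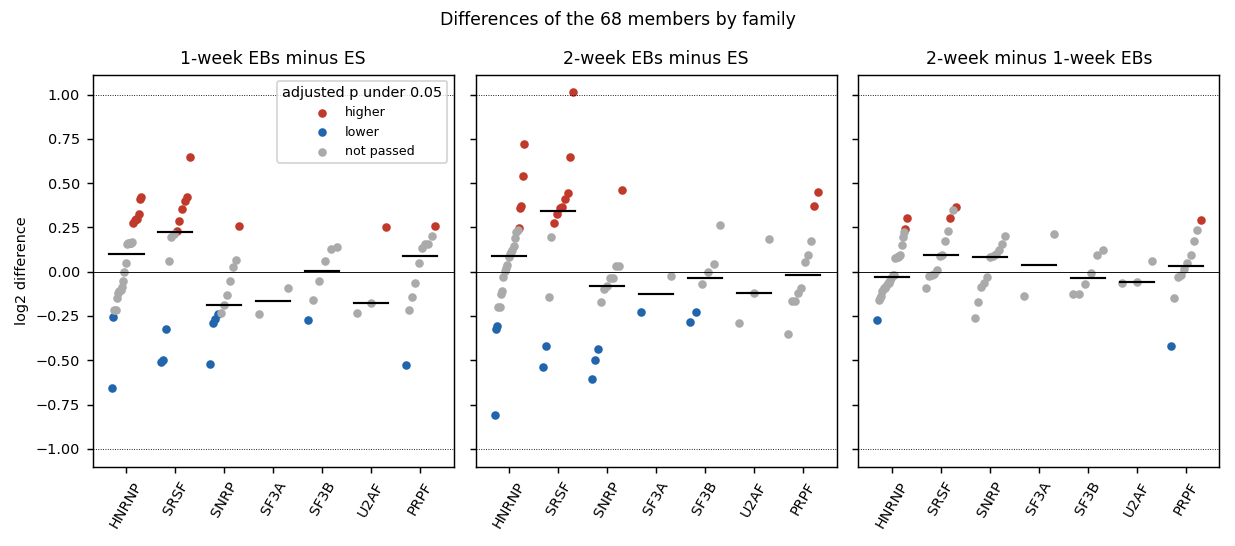
Each point is the log2 difference of 1 member, by family, in the 3 comparisons, coloured by whether it was higher, lower or did not pass at an adjusted p under 0.05. Black bars are family medians, dotted lines mark the 2-fold limits, and only SRSF2 at 2 weeks lies beyond them, at 1.01.

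More SR protein transcripts were higher than lower in EBs. Of the 12 SRSF genes 6 were higher and 3 lower at 1 week, and 8 were higher and 2 lower at 2 weeks, with median log2 differences of 0.22 and 0.34. With median scaling these medians were 0.219 and 0.22, beside 0.132 and 0.0005 for all genes, with 5 higher and 1 lower, and 5 higher and 2 lower. In the series matrix they were 0.21 and 0.374, beside 0.006 and -0.014 for all genes. From arrays 1 and 2 of every group alone the 1-week counts were 2 higher and 2 lower at a median of 0.21. Called SRSF genes made up 75% and 83.3% of the family, beside 51.9% and 62.4% of all genes.

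SRSF2, which binds exonic enhancers and also acts in transcription elongation, had the largest rise of any member. Its log2 levels were 13.55, 13.53, 13.34 and 13.35 in ESCs, 14.12, 14.11, 14.06 and 14.07 at 1 week and 14.52, 14.27, 14.53 and 14.51 at 2 weeks. Every 1-week array lay above every ESC array, and every 2-week array above every 1-week array, the second 2-week array being the lowest of its group. The means were 13.44 ± 0.11, 14.09 ± 0.03 and 14.46 ± 0.13 (SD, n = 4). The difference from ESCs was 0.65 (SE 0.08, 1.57-fold, adjusted p = 1.2e-05) at 1 week and 1.01 (SE 0.08, 95% interval 0.84 to 1.18, 2.02-fold, adjusted p = 7.79e-08) at 2 weeks. With median scaling the 2-week difference was 0.83, and from arrays 1 and 2 of every group alone it was 0.85. SRSF8, a retrotransposed relative of SRSF2, rose by 0.40 (adjusted p = 0.00383) and 0.41 (adjusted p = 0.00248). The 2 sequences are alike, and how far the probes share signal was not tested.

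SRSF3, the smallest SR protein, which also aids export of messages from the nucleus, was at 12.36, 12.28, 12.13 and 12.15 in ESCs, 12.60, 12.65, 12.70 and 12.65 at 1 week and 12.93, 13.17, 12.69 and 12.71 at 2 weeks. Its ESC arrays lay below all EB arrays, while the weeks overlapped. By this probe, ILMN_1723212, it rose by 0.42 (SE 0.10, adjusted p = 0.00323) and 0.65 (SE 0.10, adjusted p = 7.74e-05). Its other probe, ILMN_2135232, differed by 0.01 (adjusted p over all probes = 0.967) and 0.52 (0.0507), and with the mean of both the 1-week call was lost (0.15). SRSF7, its closest relative, which carries a zinc knuckle, rose by 0.36 (adjusted p = 0.00596) and 0.45 (adjusted p = 0.000947), from 12.14 ± 0.21 to 12.50 ± 0.03 and 12.59 ± 0.09. SRSF1, the founding member of the family, rose by 0.29 (adjusted p = 0.00164) and 0.27 (adjusted p = 0.00177), and with median scaling by 0.19 and 0.10 without passing.

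SRSF4 and SRSF6, long SR proteins of similar build, and SRSF11 were higher at 2 weeks, and only SRSF4 passed at 1 week as well. SRSF4 was 0.23 higher at 1 week (adjusted p = 0.0303) and 0.32 higher at 2 weeks (adjusted p = 0.00335). SRSF6 stood at 12.90 ± 0.15, 12.97 ± 0.15 and 13.27 ± 0.09, a difference of 0.06 at 1 week (95% interval -0.14 to 0.26, adjusted p = 0.611) and of 0.36 at 2 weeks (adjusted p = 0.00445). SRSF11 differed by 0.19 at 1 week (95% interval -0.02 to 0.41, adjusted p = 0.113) and rose by 0.37 at 2 weeks (adjusted p = 0.00516). SRSF9 differed by 0.21 (95% interval 0.02 to 0.41, adjusted p = 0.0586) and 0.19 (95% interval 0.00 to 0.39, adjusted p = 0.0721). The 2-week calls of SRSF4 and SRSF6 were lost with median scaling (adjusted p = 0.0914 and 0.156), and that of SRSF11 with paired arrays (0.0698). The 1-week call of SRSF4 was lost with median scaling (0.0645), with paired arrays (0.143) and without ESC array 1, ESC array 4 or 1-week array 1 (adjusted p = 0.0741, 0.0547 and 0.0867).

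SRSF10 and SRSF12, a pair of atypical family members that can repress splicing, went down. SRSF10 was at 12.40, 12.38, 12.57 and 12.60 in ESCs, 11.99, 11.92, 12.03 and 11.97 at 1 week and 12.08, 11.93, 11.82 and 11.97 at 2 weeks. All EB arrays lay below all ESC arrays, and the weeks overlapped. It fell by 0.51 (SE 0.08, adjusted p = 8.62e-05) and 0.54 (SE 0.08, adjusted p = 3.62e-05), which is 1.42-fold and 1.45-fold. SRSF12 went from 9.52 ± 0.03 to 9.19 ± 0.11 and 9.10 ± 0.04, a fall by 0.33 (adjusted p = 0.000973) and 0.42 (adjusted p = 8.59e-05), the former without passing when medians were scaled (adjusted p = 0.281).

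SRSF5, an SR protein that shuttles between nucleus and cytoplasm, was lower at 1 week only by the test (-0.50, SE 0.17, adjusted p = 0.0263), at -0.15 at 2 weeks (95% interval -0.51 to 0.22, adjusted p = 0.479). The arrays were 12.21, 12.19, 12.27 and 12.37 in ESCs, 12.17, 12.10, 11.36 and 11.43 at 1 week and 12.001, 11.88, 12.31 and 12.27 at 2 weeks. Arrays 3 and 4 of the 1-week EBs stood apart from all others, while arrays 1 and 2 lay just under the ESC range. From arrays 1 and 2 of every group the difference was -0.07, from arrays 3 and 4 it was -0.93, and the call was lost without ESC array 4, 1-week array 3 or 1-week array 4 (adjusted p = 0.0612, 0.0855 and 0.0842) and with median scaling (0.0748).

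**Figure D3:**
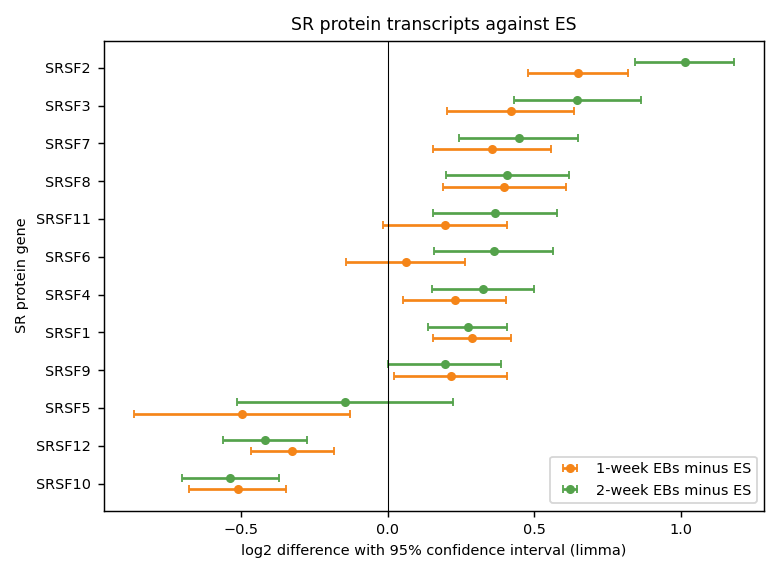
Points are log2 differences of the 12 SRSF transcripts from ESCs at 1 week (orange) and 2 weeks (green), with 95% intervals from limma. SRSF2 stands highest at 0.65 and 1.01, SRSF10 and SRSF12 lie below 0 at both times, and the intervals of SRSF5 are the widest.

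Of the 24 hnRNP genes 8 were higher and 2 lower at 1 week, and 5 were higher and 3 lower at 2 weeks, with medians of 0.10 and 0.09. These were 33.3% and 8.33% of the family against 27.1% and 24.8% of all genes at 1 week, and 20.8% and 12.5% against 30.7% and 31.8% at 2 weeks. With median scaling these counts were 4 higher and 1 lower, and 2 higher and 2 lower, and the 2-week median was -0.00176. HNRNPA0, which binds AU-rich elements of unstable messages, was at 12.78, 12.67, 12.49 and 12.53 in ESCs, 13.04, 13.02, 13.08 and 13.02 at 1 week and 13.39, 13.42, 13.30 and 13.26 at 2 weeks. The 3 groups did not overlap. It rose by 0.42 (SE 0.07, adjusted p = 0.000329) and 0.72 (SE 0.07, adjusted p = 1.4e-06), which is 1.34-fold and 1.65-fold.

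HNRNPR, an RNA-binding protein of nucleus and axons, was at 12.40, 12.46, 12.47 and 12.61 in ESCs, 12.75, 12.80, 12.81 and 12.77 at 1 week and 13.14, 13.06, 12.98 and 12.92 at 2 weeks. Here too the 3 groups did not overlap. It rose by 0.30 (SE 0.07, adjusted p = 0.00266) and 0.54 (SE 0.07, adjusted p = 1.42e-05). HNRNPAB, which binds AU-rich RNA, rose by 0.28 (adjusted p = 0.00485) and 0.36 (adjusted p = 0.000549), from 14.44 ± 0.06 to 14.72 ± 0.04 and 14.80 ± 0.12. HNRNPK, which binds C-rich RNA and DNA, rose by 0.41 (adjusted p = 0.00659) and 0.37 (adjusted p = 0.00926), and its second 2-week array, at 13.30, lay within the ESC range while the others were at 13.72 to 13.87. With median scaling both HNRNPAB differences (0.12 and 0.15) and both HNRNPK differences (0.35 and 0.21) missed the threshold. With paired arrays HNRNPK missed it at both times (adjusted p = 0.075 and 0.0866) and HNRNPAB at 1 week (0.0598). A second HNRNPK probe, ILMN_1712357, differed by 0.17 and 0.06 and passed at neither time.

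Further hnRNP genes passed at 1 week and not at 2 weeks. HNRNPM, which binds GU-rich introns, was higher by 0.33 (adjusted p = 0.0061), HNRNPH3, a binder of G runs, by 0.30 (adjusted p = 0.0207), HNRNPLL, a switch of exon skipping in lymphocytes, by 0.29 (adjusted p = 0.0152) and HNRNPD, a factor of AU-rich decay, by 0.16 (adjusted p = 0.0352). HNRNPDL, a relative of HNRNPD, fell by 0.26 (adjusted p = 0.0113). At 2 weeks these 5 differed from ESCs by 0.19, 0.24, 0.02, 0.08 and -0.11 in this order, and their adjusted p were 0.0724, 0.0506, 0.842, 0.252 and 0.236. With median scaling HNRNPD turned to -0.0785, and HNRNPM (0.20) and HNRNPDL (-0.13) missed the threshold. HNRNPD also missed the threshold with the replicate number as a block (adjusted p = 0.0543). With the mean of their probes HNRNPH3 (0.182) and HNRNPM (0.0507) missed it, and with paired arrays HNRNPD (0.178), HNRNPDL (0.0609), HNRNPH3 (0.135) and HNRNPLL (0.0961) did. Leaving out 1 array ended the call of HNRNPD (ESC arrays 1 and 4, 1-week arrays 1, 2 and 4, adjusted p = 0.0557 to 0.1), of HNRNPH3 (ESC array 2, 0.0568, and 1-week array 4, 0.0513) and of HNRNPLL (1-week array 3, 0.0506).

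At 2 weeks HNRNPUL1, a protein related to HNRNPU, was higher by 0.25 (adjusted p = 0.0223), and HNRNPA1, a general exon repressor, and HNRNPL, which binds CA-rich RNA, fell by 0.33 (adjusted p = 0.0321) and by 0.31 (adjusted p = 0.0189). All overlapped the ESC arrays. HNRNPA1 was at 11.48, 11.32, 10.95 and 10.84 in ESCs and at 10.78 to 10.86 at 2 weeks, so that only its first 2 ESC arrays stood well above the EBs. From arrays 1 and 2 of every group it differed by -0.58 and from arrays 3 and 4 by -0.07, and HNRNPL did the reverse, with -0.08 and -0.53. These calls ended without ESC arrays 1 or 2 or 2-week arrays 1, 3 or 4 for HNRNPA1 (adjusted p = 0.0506 to 0.102), without ESC arrays 3 or 4 or 2-week array 3 for HNRNPL (0.0535 to 0.065), and without ESC arrays 3 or 4 or 2-week arrays 1 or 3 for HNRNPUL1 (0.0508 to 0.0783). With median scaling HNRNPA1 (0.0794) and HNRNPUL1 (0.446) missed the threshold as well, and with paired arrays HNRNPA1 (0.0729), HNRNPL (0.0521) and HNRNPUL1 (0.0882) did. These HNRNPA1 values are from its brightest probe, ILMN_1663447. Its other probe, ILMN_1815882, fell by 0.24 at 1 week (adjusted p over all probes = 0.0239) and differed by -0.13 at 2 weeks (0.178). The timing of the HNRNPA1 calls thus depends on the probe.

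HNRNPU, a chromatin-bound scaffold protein that also regulates splicing, had the largest fall of any member and also the widest spread in ESCs. It was at 12.36, 12.25, 13.22 and 13.20 in ESCs, 11.72, 11.66, 12.39 and 12.63 at 1 week and 11.72, 11.98, 12.11 and 11.99 at 2 weeks. Arrays 3 and 4 of ESCs and of 1-week EBs lay above arrays 1 and 2, and the groups overlapped at 1 week but not at 2 weeks. It differed by -0.66 (SE 0.25, adjusted p = 0.0413) at 1 week and -0.81 (SE 0.25, adjusted p = 0.0125) at 2 weeks. The 1-week call ended without any 1 of ESC arrays 3 and 4, 1-week arrays 1 and 2 and 2-week arrays 2, 3 and 4 (adjusted p = 0.0504 to 0.125) and with paired arrays (0.0602), and the 2-week difference was -0.46 from arrays 1 and 2 and -1.16 from arrays 3 and 4.

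The remaining 11 HNRNP genes passed at neither time. Among them were HNRNPA2B1, a partner of HNRNPA1 in repression (0.16 and 0.00), HNRNPC, a core protein of nuclear RNA particles (-0.12 and -0.03), HNRNPA3 (-0.11 and -0.13), and HNRNPH1 (0.17 and 0.15), HNRNPH2 (0.16 and 0.10) and HNRNPF (-0.10 and -0.20), which bind G-rich RNA. The 95% interval of the 2-week difference was -0.15 to 0.15 for HNRNPA2B1 and -0.29 to 0.23 for HNRNPC. HNRNPA1P10, HNRNPA1P33, HNRNPA1L2 and HNRNPA3P1 are near copies of HNRNPA1 or HNRNPA3, so their probes may read the parent message. The HNRNPA1 copies differed by -0.09 to 0.00 at 1 week. At 2 weeks they differed by 0.22, 0.11 and 0.03 in this order, where HNRNPA1 itself fell by 0.33. With the replicate number as a block HNRNPA1P10 was called higher at 2 weeks (adjusted p = 0.0127). HNRNPA3P1 differed by -0.15 and -0.20.

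**Figure D4:**
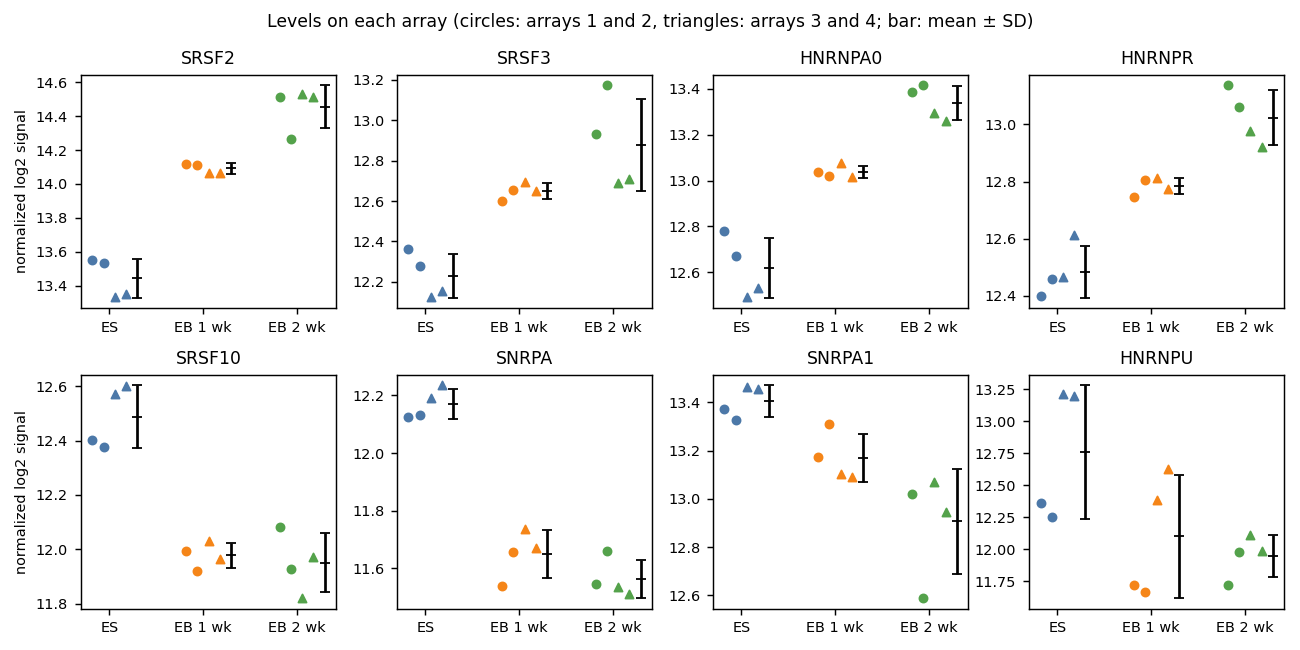
Normalized log2 signal of 8 members on every array, with circles for arrays 1 and 2, triangles for arrays 3 and 4, and a bar for the mean ± SD of 4 arrays. SRSF2, HNRNPA0 and HNRNPR rise in steps without overlap, SRSF10 and SNRPA drop by 1 week, SNRPA1 reaches its lowest value on the second 2-week array, and HNRNPU is split by array pair in ESCs.

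Of the 11 genes of snRNP proteins 1 was higher and 4 lower at 1 week, and 1 was higher and 3 lower at 2 weeks, with medians of -0.19 and -0.08. Higher genes were 9.09% of the family at both times, against 27.1% and 30.7% of all genes. Lower ones were 36.4% and 27.3%, against 24.8% and 31.8% of all genes. With median scaling 1 was higher and 4 lower, and 1 higher and 6 lower, at medians of -0.243 and -0.268. SNRPA, the U1 snRNP protein that binds a stem loop of its RNA, was at 12.13, 12.13, 12.19 and 12.23 in ESCs, 11.54, 11.66, 11.74 and 11.67 at 1 week and 11.55, 11.66, 11.54 and 11.51 at 2 weeks. All EB arrays were below all ESC arrays, and the weeks overlapped. It fell by 0.52 (SE 0.07, 1.43-fold, adjusted p = 1.82e-05) and 0.61 (SE 0.07, 1.52-fold, adjusted p = 2.59e-06). SNRPC, another U1 protein, which helps to hold the 5′ splice site, fell by 0.29 at 1 week (adjusted p = 0.00353, or 0.0696 with median scaling and 0.0519 with paired arrays) and differed by -0.17 at 2 weeks (95% interval -0.32 to -0.02, adjusted p = 0.0519).

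SNRPA1, a protein of the U2 snRNP, was at 13.37, 13.33, 13.46 and 13.46 in ESCs, 13.18, 13.31, 13.10 and 13.09 at 1 week and 13.02, 12.59, 13.07 and 12.95 at 2 weeks. The 3 groups did not overlap, and the second 2-week array was the lowest. It differed by -0.23 at 1 week (95% interval -0.45 to -0.02, adjusted p = 0.0613) and fell by 0.50 at 2 weeks (SE 0.10, adjusted p = 0.000619). SNRPB2, its partner on the same RNA, differed by 0.06 and 0.03 by its brightest probe, with a 2-week interval of -0.11 to 0.18. The other SNRPB2 probe, ILMN_1771620, was lower at 1 week (-0.26, adjusted p over all probes = 0.0457), though its arrays overlapped those of ESCs. It differed by -0.12 at 2 weeks (0.327).

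The Sm proteins form the ring common to most spliceosomal snRNPs. Among them SNRPD1 was higher, from 9.85, 9.86, 9.66 and 9.70 in ESCs to 9.98, 9.94, 10.02 and 10.16 at 1 week and 10.17, 10.02, 10.44 and 10.26 at 2 weeks. No EB array lay within the ESC range, and the weeks overlapped. The rise was 0.26 (SE 0.09, adjusted p = 0.0299) and 0.46 (SE 0.09, adjusted p = 0.000645), the former lost without ESC arrays 3 or 4 or 1-week arrays 3 or 4 (adjusted p = 0.0529 to 0.0893) and with paired arrays (0.112). SNRPG was lower at 1 week (-0.24, adjusted p = 0.00773, or 0.0688 with paired arrays) and differed by -0.08 at 2 weeks (adjusted p = 0.302). SNRPB, SNRPD2, SNRPD3 and SNRPF did not pass at either time, with differences of -0.13, -0.19, 0.03 and -0.05 at 1 week and -0.03, -0.10, -0.04 and 0.03 at 2 weeks.

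SNRPN, an imprinted relative of SNRPB that is strongly used in brain, had 3 kept probes. By the brightest, ILMN_2372082, it fell by 0.27 (adjusted p = 0.00334) and 0.44 (SE 0.06, adjusted p = 4.36e-05). Its means were 14.65 ± 0.08, 14.39 ± 0.02 and 14.22 ± 0.07, and the 3 groups did not overlap on this probe. The others overlapped the ESC arrays and passed at neither time. ILMN_1660000 differed by -0.10 (adjusted p over all probes = 0.531) and -0.21 (0.172), and ILMN_1693341 by -0.22 (0.0978) and -0.19 (0.121). The 1-week call was lost with the mean of probes (0.0815), and both calls were lost in the series matrix (0.779 and 0.118). There the second 2-week array held 11.45 for ILMN_2372082, against 14.24 to 14.3 on the other 2-week arrays. Without that array both calls stood in the series matrix.

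The SF3A and SF3B complexes hold the U2 snRNP on the branch point. None of their 8 measured genes rose, where 27.1% of all genes were higher at 1 week and 30.7% at 2 weeks. Of the 8 genes 1 was lower at 1 week and 3 at 2 weeks, where 24.8% and 31.8% of all genes were lower. SF3B5, a small SF3B subunit, was at 12.10, 12.10, 11.96 and 11.97 in ESCs, 11.68, 11.73, 11.78 and 11.85 at 1 week and 11.85, 11.55, 11.81 and 11.80 at 2 weeks. All EB arrays were below the ESC arrays. It fell by 0.28 (SE 0.08, adjusted p = 0.00977) and 0.28 (SE 0.08, adjusted p = 0.00674), which with median scaling was -0.19 (adjusted p = 0.281) and -0.34 (adjusted p = 0.0548), and with paired arrays both calls were lost (0.0778 and 0.0574).

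SF3A3, a subunit that bridges SF3A to the U2 snRNP, was at 12.54, 12.71, 12.63 and 12.56 in ESCs, 12.52, 12.53, 12.48 and 12.55 at 1 week and 12.41, 12.26, 12.40 and 12.46 at 2 weeks. Its 2-week arrays lay below those of both other groups. It fell by 0.23 at 2 weeks (SE 0.07, adjusted p = 0.0079, or 0.0765 with paired arrays). SF3B4, which contacts RNA near the branch point, fell by 0.23 at 2 weeks (adjusted p = 0.0271), a call that ended without ESC array 1, ESC array 3 or 2-week array 2 (adjusted p = 0.0706, 0.0685 and 0.074) and with paired arrays (0.153). SF3B1, the largest SF3B subunit and a frequent mutation target in blood cancers, differed by 0.13 at 1 week (95% interval -0.02 to 0.27) and 0.00 at 2 weeks (95% interval -0.15 to 0.15) by its brightest probe. SF3A2, SF3B2, SF3B3 and SF3B6 did not pass at either time, with 2-week differences of -0.03, 0.04, -0.07 and 0.26.

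U2AF reads the pyrimidine tract and the end of the intron before the U2 snRNP arrives. U2AF2, its large subunit, was at 12.57, 12.43, 12.59 and 12.65 in ESCs, 12.74, 12.74, 12.86 and 12.90 at 1 week and 12.70, 12.55, 12.88 and 12.85 at 2 weeks. The 1-week arrays lay above the ESC arrays and the 2-week arrays overlapped them. It was higher by 0.25 at 1 week (SE 0.08, adjusted p = 0.0244) and differed by 0.19 at 2 weeks (95% interval 0.00 to 0.37, adjusted p = 0.0701). The 1-week call was lost without ESC array 2 or 1-week arrays 3 or 4 (adjusted p = 0.0601 to 0.0692), with median scaling (0.157) and with paired arrays (0.0942). A dim second probe, ILMN_2385173, detected on 3 of 4 2-week arrays, was higher by 0.35 at 1 week (adjusted p over all probes = 0.00771). It differed by -0.13 at 2 weeks (0.245). Between the weeks that probe fell by 0.49 (0.00277), while the brightest differed by -0.06 (0.656). U2AF1, the small subunit, differed by -0.18 and -0.12, and its relative U2AF1L4 by -0.24 and -0.29, without passing.

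PRPF genes act in the tri-snRNP and in the later steps of spliceosome activation. Of 10 genes 1 was higher and 1 lower at 1 week, and 2 were higher at 2 weeks, so that 20% of the family was called at each time against 51.9% and 62.4% of all genes. PRPF19, the ubiquitin ligase at the core of a complex that activates the spliceosome, was at 10.65, 10.70, 10.93 and 10.95 in ESCs, 10.88, 10.85, 11.14 and 10.98 at 1 week and 11.23, 11.32, 11.34 and 11.13 at 2 weeks. The 1-week arrays overlapped the ESC arrays and the 2-week arrays lay above them. It differed by 0.16 at 1 week (95% interval -0.04 to 0.36, adjusted p = 0.168) and rose by 0.45 at 2 weeks (SE 0.09, adjusted p = 0.00081). PRPF3, a tri-snRNP protein, rose by 0.37 at 2 weeks (adjusted p = 0.00358), from 10.63 ± 0.09 to 10.998 ± 0.19.

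PRPF38B was at 8.99, 8.96, 8.91 and 8.92 in ESCs, 9.27, 9.18, 9.01 and 9.35 at 1 week and 8.83, 8.86, 8.82 and 8.62 at 2 weeks. The 1-week arrays were the highest and the 2-week arrays the lowest, with no overlap. It was higher by 0.26 at 1 week (SE 0.08, adjusted p = 0.0186), which was lost without 1-week arrays 1 or 4 (adjusted p = 0.0532 and 0.0621) and with paired arrays (0.14), and differed from ESCs by -0.16 at 2 weeks (adjusted p = 0.101).

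PRPF39, a U1-associated protein, was dim. Its values were 7.30, 7.44, 7.85 and 7.54 in ESCs, 7.04, 6.67, 7.19 and 7.14 at 1 week and 6.78, 7.21, 7.18 and 7.56 at 2 weeks. It was detected on 4 ESC, 3 1-week and 2 2-week arrays, so that some EB values are not above background. It fell by 0.53 at 1 week (SE 0.16, adjusted p = 0.0156, lost without ESC array 3, 0.0513, or 1-week array 2, 0.0548, with median scaling, 0.129, and with paired arrays, 0.0853) and differed by -0.35 at 2 weeks (adjusted p = 0.0758). PRPF8, the scaffold at the catalytic core, PRPF4, PRPF6 and PRPF31 of the tri-snRNP, PRPF18 of the final splicing step, and PRPF38A did not pass at either time. Their 2-week differences lay between -0.17 and 0.17.

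Between the first and the second week of EB culture 5 of the 68 members (7.35%) rose and 2 (2.94%) fell, against 12.4% and 14.1% of all genes, and 0 passed the 2-fold mark against 1.38%. SRSF2 rose by 0.36 (SE 0.08, adjusted p = 0.00399), HNRNPA0 by 0.30 (SE 0.07, adjusted p = 0.00851), SRSF6 by 0.30 (adjusted p = 0.0313), PRPF19 by 0.29 (adjusted p = 0.0326) and HNRNPR by 0.24 (adjusted p = 0.022). PRPF38B fell by 0.42 (SE 0.08, adjusted p = 0.00218) and HNRNPLL by 0.27 (adjusted p = 0.0417). This comparison shares its arrays with both others. With median scaling the rises of SRSF2 (0.29), HNRNPA0 (0.17), SRSF6 (0.18), PRPF19 (0.15) and HNRNPR (0.11) all missed the threshold, beside an all-gene median of -0.12, and the falls of PRPF38B and HNRNPLL stayed called.

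With paired arrays SRSF2 kept its call between the weeks (adjusted p = 0.045), and HNRNPA0 (0.0634), PRPF38B (0.0515), HNRNPR (0.149), SRSF6 (0.148), PRPF19 (0.152) and HNRNPLL (0.224) lost theirs. Leaving out any 1 array ended none of the calls of SRSF2, HNRNPA0 and PRPF38B. HNRNPR lost its call without 1-week arrays 1 or 4 or 2-week array 1 (adjusted p = 0.0506 to 0.0633), SRSF6 without 1-week arrays 3 or 4 or 2-week arrays 1, 2 or 3 (0.0575 to 0.0937), PRPF19 without 1-week arrays 1, 2 or 4 or 2-week arrays 1, 2 or 3 (0.0546 to 0.0925), and HNRNPLL without ESC array 3, 1-week arrays 2, 3 or 4 or 2-week arrays 1, 2 or 4 (0.0506 to 0.119). The count of 7 fell to 3 without 1-week array 4 and to 4 without 2-week array 1.

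Probes of a gene can read different splice forms, and here several disagreed. The members had 96 kept probes, of which 36 (37.5%) were called at 1 week, 31 (32.3%) at 2 weeks and 10 (10.4%) between the weeks, against 49%, 59.8% and 22.8% of all kept probes. Of 25 members with several kept probes, 3 had all probes called the same way at 1 week, 12 had some called and some not, and 10 had none called. At 2 weeks these counts were 0, 8 and 16, and 1 member, HNRNPU, had probes called in opposite directions. These counts were not made for other genes, so whether they set the members apart was not tested. The difference between a dimmer probe and the brightest probe of its gene was itself tested over 3024 probe pairs. It was called in 12.7%, 19.5% and 1.29% of all pairs in the 3 comparisons. Of the 28 pairs of members 2, 4 and 1 were called (7.14%, 14.3% and 3.57%), below the share of all pairs in both comparisons with ESCs.

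SF3B1 gave the clearest case. Its probe ILMN_1674780, annotated to NM_001005526, was at 10.87, 10.75, 10.83 and 10.84 in ESCs, 10.75, 10.54, 10.59 and 10.59 at 1 week and 9.97, 9.91, 10.07 and 9.89 at 2 weeks. The 3 groups did not overlap, and the largest step lay between the weeks. It fell by 0.21 (adjusted p over all probes = 0.0263), 0.86 (2.01e-07) and, between the weeks, 0.66 (3.24e-05). The brightest probe, ILMN_1706075, annotated to NM_012433, was at 12.67 ± 0.09, 12.80 ± 0.09 and 12.67 ± 0.04. The difference between the probes was -0.33 at 1 week (adjusted p = 0.030), -0.86 at 2 weeks (adjusted p = 1.08e-05) and -0.53 between the weeks (adjusted p = 0.0161). Averaged over its probes SF3B1 fell by 0.43 at 2 weeks, so the value of 0.00 holds for the brightest probe alone.

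HNRNPU was read by ILMN_2370135, whose values are given above, and by ILMN_1743677, which was at 9.54, 9.63, 9.41 and 9.53 in ESCs, 9.43, 9.52, 9.24 and 9.27 at 1 week and 9.84, 10.01, 9.76 and 9.58 at 2 weeks. The second probe was higher on 3 of 4 2-week arrays than on any ESC array. It differed from ESCs by 0.26 (adjusted p over all probes = 0.0325) at 2 weeks, where the first fell by 0.81, and the difference between the probes was 1.07 (adjusted p = 0.0216). With the mean of its probes HNRNPU was not called at 2 weeks.

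For SRSF10 a pair of probes fell together, ILMN_1658460 as above and ILMN_2354649 by 0.48 and 0.50 (adjusted p over all probes = 0.00492 and 0.00295). The other probe, ILMN_1677162, was at 10.13, 9.998, 10.40 and 10.501 in ESCs, 10.34, 10.28, 10.52 and 10.54 at 1 week and 10.13, 10.17, 10.39 and 10.46 at 2 weeks, with overlap throughout. It differed by 0.16 and 0.03 without passing, and its difference from the brightest probe was 0.67 (adjusted p = 0.00185) and 0.57 (adjusted p = 0.00384). HNRNPAB had a probe, ILMN_1696485, that stayed at 11.99 ± 0.01, 12.06 ± 0.14 and 11.98 ± 0.14, and its 2-week difference from the brightest probe was -0.37 (adjusted p = 0.0318). A further HNRNPAB probe, ILMN_2335718, rose like the brightest, by 0.33 (adjusted p over all probes = 0.00119) and 0.43 (9.76e-05). Whether these probes read different splice forms was not tested.

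**Figure D5:**
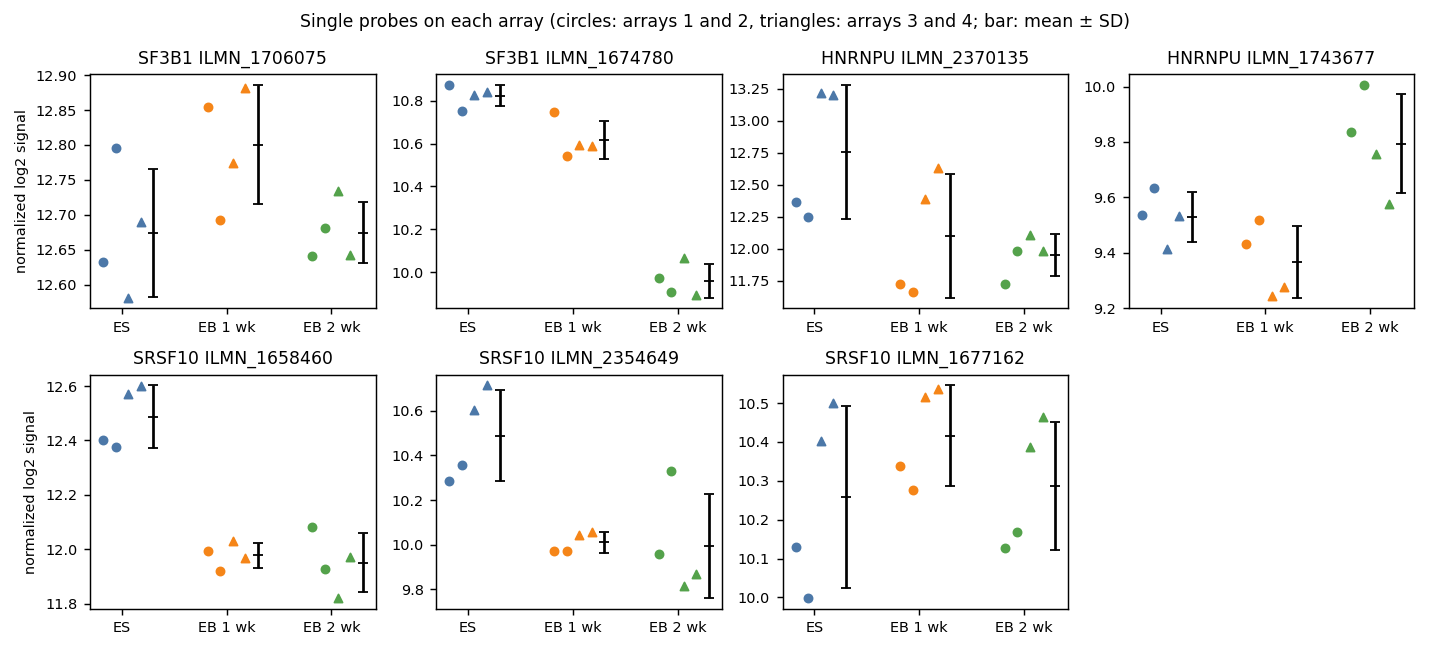
Normalized log2 signal of single probes of SF3B1, HNRNPU and SRSF10 on every array, with circles for arrays 1 and 2, triangles for arrays 3 and 4 and a bar for the mean ± SD of 4 arrays. SF3B1 probe ILMN_1674780 drops at 2 weeks while ILMN_1706075 does not, the HNRNPU probes move apart at 2 weeks, and the groups of SRSF10 probe ILMN_1677162 overlap while the other probes of that gene drop.

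Genes around the members in the splicing pathway were counted from lists. Among 42 other spliceosome subunits 6 were higher and 7 lower at 1 week and 9 were higher and 10 lower at 2 weeks (median 0.04). These were 14.3% and 16.7%, and 21.4% and 23.8%, below the shares of all genes, which here and for the lists that follow were 27.1% higher and 24.8% lower at 1 week and 30.7% higher and 31.8% lower at 2 weeks. SNRNP27, a tri-snRNP protein, was at 10.89, 10.87, 10.67 and 10.72 in ESCs, 11.12, 10.98, 11.01 and 11.01 at 1 week and 11.19, 11.17, 11.32 and 11.31 at 2 weeks. Its 3 groups did not overlap, and it rose by 0.46 at 2 weeks (adjusted p = 8.15e-05). SF1, which binds the branch point before the U2 snRNP, fell by 1.41 (2.67-fold, adjusted p = 1.15e-05) by its brightest probe and by 1.24 by another, while a further probe rose by 0.89, so its direction depends on the probe. Its brightest probe was at 10.18, 10.41, 11.04 and 11.16 in ESCs, 9.22, 9.14, 9.49 and 9.27 at 1 week and 9.39, 9.25, 9.33 and 9.16 at 2 weeks, with all EB arrays below the ESC arrays. The 9 LSM ring genes, whose proteins bind U6 RNA and also act in message decay, gave 0 higher and 3 lower at 1 week and 1 higher and 0 lower at 2 weeks. The latter was LSM3, at 13.01, 12.998, 12.66 and 12.63 in ESCs, 12.98, 12.95, 12.93 and 12.80 at 1 week and 13.07, 13.34, 12.96 and 13.07 at 2 weeks. Its groups overlapped. The 2-week difference was 0.28 (adjusted p = 0.0333, other probe -0.06), lost without ESC arrays 3 or 4 or 2-week array 2 (0.0993 to 0.105), with median scaling (0.354) and with paired arrays (0.1).

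Of 14 snRNP assembly genes 1 was higher and 4 lower at 1 week, and 1 was higher and 5 lower at 2 weeks. GEMIN8, a subunit of the SMN complex that loads Sm rings, was at 9.04, 9.06, 8.84 and 8.91 in ESCs, 8.14, 8.15, 8.15 and 8.14 at 1 week and 7.96, 7.69, 7.99 and 7.87 at 2 weeks. The groups did not overlap, and it fell by 0.82 and 1.09 (2.13-fold at 2 weeks, adjusted p = 3.33e-08). WDR77, a partner of the arginine methyltransferase that modifies Sm proteins, was at 9.61, 9.67, 9.49 and 9.47 in ESCs, 9.83, 9.86, 9.73 and 9.77 at 1 week and 9.70, 9.62, 9.80 and 9.82 at 2 weeks. The 1-week arrays lay above the ESC arrays and the 2-week arrays overlapped them. It was higher by 0.17 at 2 weeks (adjusted p = 0.0482), which was lost without any 1 of ESC arrays 1, 3 and 4, 1-week arrays 1 to 4 and 2-week arrays 1, 3 and 4 (0.0518 to 0.132), with median scaling (0.125) and with paired arrays (0.147).

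Kinases and the import receptor of SR proteins, 7 genes, gave 4 higher and 1 lower at 1 week and 3 higher and 2 lower at 2 weeks. SRPK1, the kinase that phosphorylates SR proteins in the cytoplasm, was at 11.79, 11.73, 11.51 and 11.57 in ESCs, 12.28, 12.17, 12.06 and 12.22 at 1 week and 12.21, 12.19, 12.15 and 12.10 at 2 weeks. All EB arrays lay above the ESC arrays, by 0.53 and 0.51 on average (adjusted p = 6.66e-05 and 6.25e-05). TNPO3, which carries phosphorylated SR proteins into the nucleus, was at 11.83, 11.65, 12.56 and 12.64 in ESCs, 11.73, 11.59, 11.83 and 11.72 at 1 week and 11.61, 10.39, 11.50 and 11.48 at 2 weeks. ESC arrays 3 and 4 stood high and the second 2-week array low. It fell by 0.92 at 2 weeks (adjusted p = 0.00765).

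Among 8 SR-related genes 2 were higher and 1 lower at 1 week, and 3 were higher and 2 lower at 2 weeks. The paralogs TRA2B and TRA2A, which bind GAA-rich exons, moved in opposite directions. TRA2B was at 12.70, 12.76, 12.81 and 12.79 in ESCs, 13.14, 13.08, 13.05 and 13.15 at 1 week and 13.30, 13.21, 13.34 and 13.36 at 2 weeks, and it rose by 0.34 (adjusted p = 0.000404) and 0.54 (adjusted p = 4.09e-06). TRA2A was at 11.39, 11.31, 12.09 and 12.06 in ESCs, 11.17, 11.14, 11.11 and 11.16 at 1 week and 11.17, 11.001, 11.24 and 11.04 at 2 weeks, and it fell by 0.56 (adjusted p = 0.00804) and 0.60 (adjusted p = 0.00443). Neither gene's EB arrays overlapped its ESC arrays. For TRA2A the ESC arrays 3 and 4 stood above arrays 1 and 2.

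All 4 exon junction complex genes tested, whose products mark spliced messages, were higher at 2 weeks, and 3 were at 1 week. MAGOHB was at 7.27, 7.03, 6.95 and 7.02 in ESCs, 7.72, 7.80, 7.59 and 7.60 at 1 week and 8.21, 8.09, 8.02 and 8.04 at 2 weeks, without overlap. It rose by 1.02 (2.03-fold, adjusted p = 1.21e-07) at 2 weeks and was detected on 1 of 4 ESC arrays, so its ESC level of 7.07 ± 0.14 is near background. In the list of 25 splicing regulators of particular tissues 8 were higher and 3 lower at 1 week, and 9 were higher and 4 lower at 2 weeks. MBNL2, which promotes splice forms of differentiated cells, was at 7.14, 7.20, 7.06 and 7.10 in ESCs, 9.76, 9.69, 9.43 and 9.45 at 1 week and 9.85, 9.43, 9.88 and 9.90 at 2 weeks. It rose 5.49-fold and 6.24-fold (adjusted p = 3.31e-10 and 1.02e-10), and its other probe rose by 2.51 and 2.76 on the log2 scale. The MBNL2 values in ESCs lay within the range of those of MAGOHB, near background, so the size of these folds is uncertain. ESRP1, an epithelial regulator, was at 9.41, 9.40, 9.20 and 9.31, then 8.88, 8.92, 8.79 and 8.80, then 8.14, 7.76, 7.89 and 8.21. Its 3 groups did not overlap, and it fell by 0.48 (adjusted p = 0.000942, or 0.0865 with median scaling) and 1.33 (adjusted p = 3.75e-08).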

How the data were processed

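Per the file headers, the authors deposited probe intensity on a linear scale without normalization, beside a detection p-value for each probe on each array. They also deposited a series matrix of log2 values whose making is not given in the sources used here, with equal medians on all arrays, and it was used as an alternative. All per-sample columns were used. From the intensities, limma 3.58.1 in R 4.3.3 (neqc, offset 16) corrected background from the detection p-values, normalized by quantiles and took log2. Quantile normalization removes any change common to most transcripts, and the offset shrinks differences of dim probes. Of 48803 probes, 15921 passed a detection p-value of 0.01 on 4 or more of 12 arrays. Symbols came from the platform annotation (27578 probes with 1 symbol, 13 with several, 21212 unnamed here), 27541 were matched by Entrez ID and 0 were changed. The brightest probe stood for its gene, which left 10562 genes.

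The 3 groups were fitted together with limma's lmFit and eBayes (prior degrees of freedom 4.31), and p-values were Benjamini-Hochberg adjusted over all genes, over all kept probes, or over all 3024 probe pairs. The number of arrays limits the precision. The code was tested on simulated data. The members and gene lists were chosen with earlier results of these data known. Values by array were given for the largest rise and fall of each family against ESCs, for members past 2-fold or with probes called in opposite directions, and for the largest rise and fall of each list at 2 weeks. SRSF5, HNRNPR, HNRNPA1, HNRNPK, SRSF3, SNRPA1 and the named probes were added after their values were seen. Alternatives were median scaling, no background correction, the series matrix, other detection filters, the mean of probes, blocks, array pairs and leaving out each array. Sequences are RefSeq's. Same-numbered arrays of ESCs and 1-week EBs deviated together across genes (correlations of 0.138 to 0.245), while of the 8 correlations with 2-week EBs (-0.086 to 0.135) 1 was above 0.1. The labels give the numbers no meaning, and the fit without a block was kept.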

Additional observations from a re-analysis of the deposited data

Results flagged for a closer look

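In 12 of 204 combinations of a member and a group, 1 array stood apart from the other 3 by more than Dixon's critical value at the 95% level, and chance gives about 1 in 20. The second 2-week array, which also had the lowest mean intensity, accounted for 4 of them. It read HNRNPH1 at 11.54 against 12.001 to 12.08 on the others, HNRNPH3 at 11.57 against 11.99 to 12.03, SRSF2 at 14.27 against 14.51 to 14.53 and PRPF3 at 11.29 against 10.87 to 10.93. Of the other arrays of 2-week EBs, array 4 read SRSF8 at 10.04 against 10.19 to 10.21.

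Among the 1-week EBs, array 1 read HNRNPF at 8.61 against 8.84 to 8.88 and SRSF4 at 12.82 against 12.68 to 12.71. Array 3 of that group read HNRNPDL at 10.91 against 10.86 to 10.87 and U2AF1L4 at 7.13 against 7.32 to 7.34. Among the ESCs, array 1 read HNRNPF at 9.15 against 8.81 to 8.86 and PRPF18 at 9.28 against 9.001 to 9.04, and array 4 read HNRNPA3P1 at 8.21 against 8.42 to 8.43. The causes were not tested.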

How the results depend on the processing

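Against ESCs 28 members were called at 1 week and 27 at 2 weeks, and 7 between the weeks. The 1-week count was 18 with median scaling, 10 in the series matrix and 13 with array pairs as a random block (correlation 0.544). It was 13 from arrays 1 and 2 of every group, 37 from arrays 3 and 4, and 24 to 31 without any 1 array. The 2-week count stayed within 1.5 times under every alternative run. It ran from 18 in the series matrix to 39 from arrays 3 and 4, with 24 to 33 without any 1 array. Of its calls 45.5% were higher with median scaling and 72.2% in the series matrix, in place of 59.3%. The count between the weeks was 2 with median scaling, 1 in the series matrix, 1 with the random block, 17 from arrays 3 and 4, and 3 to 7 without any 1 array. The member probes called in the series matrix were 10 in place of 36 at 1 week, 21 in place of 31 at 2 weeks and 3 in place of 10 between the weeks. With the replicate number as a block, 27, 31 and 8 members were called, and of the 1-week calls HNRNPD alone was lost (adjusted p = 0.0543).

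A fixed block of array pairs, chosen after seeing the data, gave 30, 33 and 8, and the series matrix without 2-week array 2, likewise chosen afterwards, gave 30, 29 and 2. Signs turned for HNRNPD at 1 week with median scaling (-0.0785), for HNRNPK at 2 weeks in the series matrix (-1.19) and for SF3B1 at 2 weeks with the mean of probes (-0.43). The SF3B1 value averages a probe at 0.00 and a probe at -0.86, and the HNRNPK value rests on 1 deposited value of 7.01 on 2-week array 2. For HNRNPD the cause was not tested. The mean of probes ended 4 calls at 1 week and 1 at 2 weeks. Under all alternatives run 5 calls stood at 1 week (HNRNPA0, HNRNPR, SNRPA, SRSF10 and SRSF2), 11 at 2 weeks (these and PRPF19, PRPF3, SNRPA1, SRSF3, SRSF7 and SRSF8) and 0 between the weeks. PRPF39 and U2AF1L4 were not detected on all arrays, so their signal over background limits their differences.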

Other observations

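In the deposited series matrix the second 2-week array did not follow its own intensities. On it 2763 probes (5.66%) lay more than 1 log2 unit away from the quantile-normalized signal of the same array, relative to the other arrays, against at most 6 probes on any other array. Among kept probes the number was 2663 (16.7%), and it included 14 of the 96 kept probes of the members (14.6%). HNRNPK was deposited at 7.01 on that array and at 13.75 to 13.83 on the other 2-week arrays, while its intensity was 7664 against 12754 to 16214. SNRPF stood at 6.69 against 14.01 to 14.16, SRSF9 at 7.18 against 13.89 to 14.03 and HNRNPH3 at 6.43 against 12.06 to 12.13. Without that array the series matrix gave 30 called members at 1 week in place of 10.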
